A study of Mus musculus with 2 samples.

Results

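The p53 pathway was examined in mouse embryonic stem cells (ESCs) through 10 genes, namely *Trp53*, which encodes p53, and the p53 target genes *Mdm2*, *Ccng1*, *Bbc3*, *Bax*, *Eda2r*, *Plk2*, *Zmat3*, *Phlda3* and *Sesn1*. Every probe set whose single gene symbol in the platform annotation was one of these names was taken. This gave 16 probe sets for 8 of the 10 genes, out of 34958 probe sets for 18194 genes. No probe set carried the symbol of *Trp53* or *Bax* alone. These genes were not analysed here, and p53's own transcript has no value below.

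The study compared ESCs without G9a, a methyltransferase that places dimethylation on histone H3 lysine 9, with wild-type (WT) ESCs, and held 1 Affymetrix array per genotype. The G9a-KO cells were TT2-derived ESCs with an older G9a mutant allele and a second allele from which Cre had removed the exons of the catalytic SET domain core. The WT cells were the parental TT2 line, made from the F1 embryo of a C57BL/6 female and a CBA male. Both samples carry one treatment text, with 800 nM 4-hydroxytamoxifen for 48 h and 48 h without it, so it is not known whether the drug was also given to the WT cells. The study's methods instead describe an established G9a-null line grown on inactivated embryonic fibroblasts, with no statement on the number of clones. The labels and the methods also differ on the medium, and the methods name serum and leukemia inhibitory factor for all ESCs.

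p53 is a transcription factor that is kept low in unstressed cells, because MDM2, a ubiquitin ligase, marks it for degradation. DNA damage and other stresses free it from this control. It then switches on genes for cell cycle arrest, DNA repair and cell death, and also *Mdm2* itself, which closes a feedback loop. Mouse ESCs are known for abundant p53 and for a weak arrest at the G1 phase after damage. G9a and its partner GLP can methylate p53 itself in human cells, besides histones.

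Levels are given as log2 values relative to the 75th percentile of all probe sets on the same array, so that 0 is that percentile, and each difference is the G9a-KO level less the WT level in the same log2 units. The median of all 45101 probe sets lay at -2.13 on the G9a-KO array and -2.24 on the WT array. With 1 array per group there is no spread between cultures, and no p-value can be given. The number of arrays limits the precision of every value below. As a partial guide to technical spread, the 18 probe sets for RNA added at hybridization differed by -0.16 to 0.21 (SD 0.11). Probe sets bind their targets with different strength, so the level of a gene was compared between arrays and not with that of another gene. Sums of levels over markers and groups of genes at a like level, used below, mix probe sets of unlike strength.

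The state of the cultures bears on all results. All 13 ESC markers lay above the 75th percentile on both arrays, with a median of 3.85 in G9a-KO and 4.10 in WT ESCs. By the brightest probe set, 3 of them were over 1.3-fold higher in G9a-KO and 3 lower. The higher ones were *Tbx3* (difference 1.17), *Tfcp2l1* (1.14) and *Dppa5a* (0.61). The lower ones were *Zfp42* (-0.79), *Utf1* (-0.61) and *Pou5f1* (-0.46). Among all genes, 17.4% were higher and 17.2% lower in this way. Of 20 primitive endoderm markers, 20 were over 1.3-fold higher in G9a-KO by the brightest probe set (background 17.4% of all genes higher and 17.2% lower). Their median difference was 3.12, and their levels added up to 159 times the 75th percentile in G9a-KO against 15.0 times in WT. Of 14 fibroblast markers, 3 were over 1.3-fold higher and 0 lower by the brightest probe set (background 17.4% and 17.2%). These 3 were *Lum* (0.98), *Col1a2* (0.83) and *Twist1* (0.48). The levels of the 14 added up to 2.91 in G9a-KO and 2.55 in WT. Of the 14, 9 lay below the array median on both arrays, among these *Lum*, *Col1a1*, *Col3a1*, *Dcn*, *Thy1* and *Postn*. A larger number of endoderm cells and more RNA per cell cannot be told apart in bulk RNA, and the part of the endoderm markers in the p53 results was not tested. *Ehmt2*, the gene of G9a, stood at 0.51 in G9a-KO and 2.05 in WT by its brighter probe set and at -2.07 in G9a-KO and -2.27 in WT by the dimmer. The sources used here do not place these probe sets inside or outside the deleted exons. RNA integrity was alike, with a 3′ minus 5′ signal of -0.12 in G9a-KO and -0.13 in WT for *Gapdh*.

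The promoters of the measured members were read from RefSeq (GRCm38.p6), from 250 bases before to 50 bases after each annotated start. Windows were matched by gene ID for 7 of the 8 measured members, 10 windows in all, and none was matched for *Zmat3*. They were searched for the p53 half-site, the 10-base unit that p53 binds in pairs and whose pattern is its own reverse complement, and for CACGTG, the E-box bound by MAX, which is its own reverse complement. The half-site was found in 3 of the 10 windows, against 8.36% of all 32851 promoter windows. A pair of half-sites at most 13 bases apart was in 0 of the 10 windows and in 0.0731% of all windows. CACGTG was in 2 of the 10 windows, those of *Eda2r* and of 1 of the 3 starts of *Bbc3*, against 7.15% of all. A match describes these letters only and is not evidence of binding, and sites outside the windows, such as those in first introns, were not searched. The windows with a half-site are shown because they belong to the feedback genes *Mdm2* and *Ccng1* and to *Sesn1*, together with that of *Eda2r*, the member with the largest difference. Capitals mark the half-site in the first 3 and CACGTG in the last.
*Mdm2* (chr10:117710709-117711008, minus strand): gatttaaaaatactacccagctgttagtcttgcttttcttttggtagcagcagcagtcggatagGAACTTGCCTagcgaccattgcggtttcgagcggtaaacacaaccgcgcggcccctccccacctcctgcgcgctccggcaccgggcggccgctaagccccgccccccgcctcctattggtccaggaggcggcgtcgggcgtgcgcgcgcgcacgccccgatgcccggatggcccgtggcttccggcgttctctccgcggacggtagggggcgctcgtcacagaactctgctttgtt
*Ccng1* (chr11:40755237-40755536, minus strand): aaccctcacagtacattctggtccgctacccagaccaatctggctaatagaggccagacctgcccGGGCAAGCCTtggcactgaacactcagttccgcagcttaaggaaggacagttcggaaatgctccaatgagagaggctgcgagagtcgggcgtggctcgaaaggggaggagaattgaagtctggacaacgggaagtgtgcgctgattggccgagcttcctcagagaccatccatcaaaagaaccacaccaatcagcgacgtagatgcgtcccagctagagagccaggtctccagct
*Sesn1* (chr10:41887189-41887488, plus strand): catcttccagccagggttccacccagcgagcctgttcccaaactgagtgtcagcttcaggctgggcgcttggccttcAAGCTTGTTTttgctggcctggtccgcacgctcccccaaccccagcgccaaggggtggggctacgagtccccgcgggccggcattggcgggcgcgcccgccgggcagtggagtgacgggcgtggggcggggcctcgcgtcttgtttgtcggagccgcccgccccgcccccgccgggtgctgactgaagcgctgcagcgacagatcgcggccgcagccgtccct
*Eda2r* (chrX:97377160-97377459, minus strand): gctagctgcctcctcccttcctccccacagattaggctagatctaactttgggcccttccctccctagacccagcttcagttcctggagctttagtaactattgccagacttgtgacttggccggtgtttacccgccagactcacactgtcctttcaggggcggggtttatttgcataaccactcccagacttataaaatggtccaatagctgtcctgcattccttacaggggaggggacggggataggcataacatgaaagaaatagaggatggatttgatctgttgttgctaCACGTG
The half-site began 186 bases before the start in *Mdm2*, 185 bases before it in *Ccng1* and 173 bases before it in *Sesn1*. The *Sesn1* window belongs to 1 of 2 annotated starts, and the window of the other start held no half-site.

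*Eda2r* and *Bbc3*, which both have a role in cell death, had the largest differences among the measured members. *Eda2r*, a TNF-family receptor for a form of ectodysplasin, was at 1.28 in G9a-KO and 0.18 in WT ESCs, a difference of 1.10 (2.14-fold higher). It rests on 1 probe set. *Bbc3*, which encodes PUMA, a BH3-only protein that sets off mitochondrial cell death, was at 0.51 in G9a-KO and -0.45 in WT, a difference of 0.96 (1.95-fold higher), also on 1 probe set. G9a-KO thus lay above the 75th percentile for both genes, and WT lay above it for *Eda2r* and below it for *Bbc3*. Among all 18194 genes, 96.1% had a lower difference than *Eda2r* and 95.0% a lower one than *Bbc3*. The robust SD of the differences of genes in the same 1 of 20 bins of level, which holds real and technical differences together, was 0.53 for *Eda2r* and 0.59 for *Bbc3*.

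**Figure D1:**
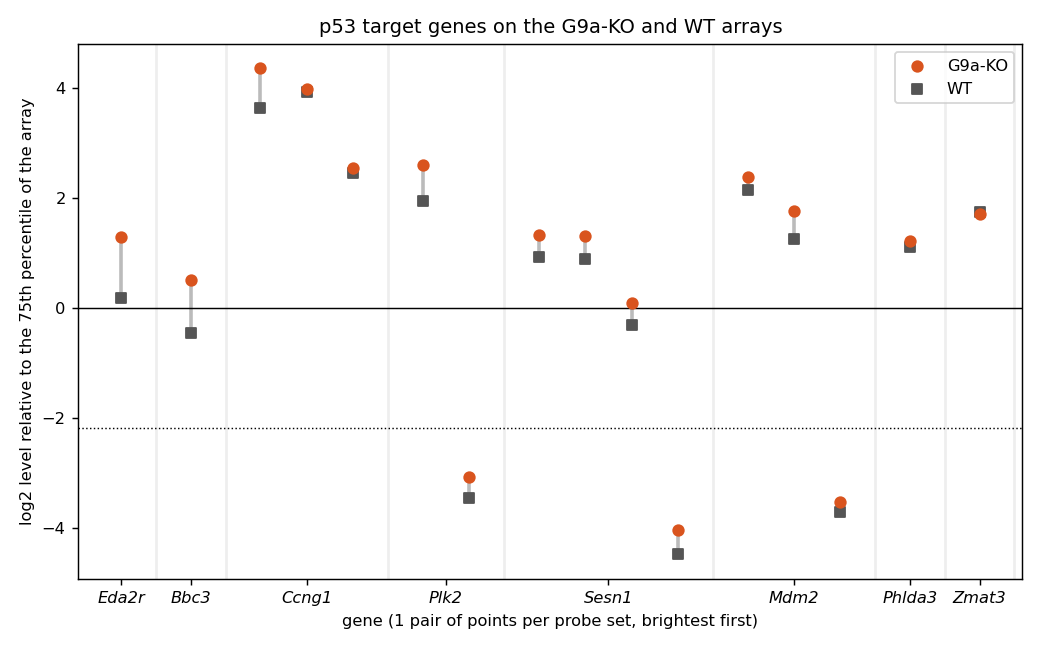
Level of each probe set of the 8 measured members (vertical axis, in log2 units from the array's 75th percentile) on the G9a-KO array (orange circles) and the WT array (grey squares), 1 point per array, with the genes ordered by difference along the horizontal axis. The solid line is the 75th percentile and the dotted line the mean of the array medians. The G9a-KO point lies above the WT point in 15 of the 16 probe sets, and the 3 probe sets of *Ccng1* show gaps of 0.71, 0.07 and 0.10.

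The feedback genes gave values that depended on the probe set. *Mdm2* was at 2.38 in G9a-KO and 2.14 in WT by its brightest probe set, a difference of 0.25 (1.19-fold higher), which lay within 1.3-fold. Its second probe set stood at 1.76 in G9a-KO and 1.26 in WT and passed that threshold (difference 0.51, 1.42-fold higher). The dimmest, below the array median at -3.53 in G9a-KO and -3.70 in WT, differed by 0.18. All 3 probe sets of *Mdm2* were thus higher in G9a-KO, but only 1 of them by over 1.3-fold.

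*Ccng1*, which encodes cyclin G1, a partner of the phosphatase PP2A that acts back on MDM2 and p53, had 3 probe sets, all annotated to 1 accession. The brightest stood at 4.35 in G9a-KO and 3.64 in WT, a difference of 0.71 (1.64-fold higher). The next was almost as bright over both arrays and was the brighter in WT. It stood at 3.98 in G9a-KO and 3.92 in WT and differed by 0.07 (1.05-fold). The dimmest stood at 2.55 in G9a-KO and 2.45 in WT, a difference of 0.10 (1.07-fold). The call for *Ccng1* therefore rests on 1 of 3 bright probe sets, and the mean over them was 0.29 (1.23-fold higher), inside the threshold. The range of 0.65 among its probe sets was wider than in 72.0% of the 5371 genes with more than 1 bright probe set (above the array median), where the median range was 0.34.

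Among members that restrain growth, *Plk2*, a polo-like kinase that p53 induces, was at 2.59 in G9a-KO and 1.94 in WT, a difference of 0.66 (1.57-fold higher). Its other probe set lay below the array median, at -3.07 in G9a-KO and -3.44 in WT, and differed by 0.37 (1.29-fold). *Plk2* was higher in G9a-KO by both probe sets, although the dim one is close to background.

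*Sesn1*, a sestrin that dampens mTOR signalling under stress, was the member measured most evenly. Its 4 probe sets differed by 0.40, 0.41, 0.41 and 0.44, from brightest to dimmest. The brightest stood at 1.33 in G9a-KO and 0.93 in WT (1.32-fold higher). The next were at 1.298 and 0.09 in G9a-KO, against 0.89 and -0.32 in WT, and the dimmest lay below the array median at -4.04 in G9a-KO and -4.47 in WT. The brightest and the one at 0.09 were annotated to the same accession. The range of 0.016 among the 3 probe sets above the median was wider than in 2.51% of the genes with more than 1 bright probe set. All of these values lay just past the 1.3-fold threshold of 0.38. Centring the arrays on their medians took the brightest to 0.29, below it.

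The remaining members did not differ by 1.3-fold. *Phlda3*, which encodes a PH-domain protein that competes with the kinase AKT for membrane lipids, stood at 1.22 in G9a-KO and 1.10 in WT (difference 0.12, 1.08-fold). *Zmat3*, a zinc finger RNA-binding protein, stood at 1.70 in G9a-KO and 1.73 in WT (difference -0.03, 1.02-fold lower) and was the single member with a negative value. Both differences lay within the range of the added control RNA.

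Counted as the methods of the study do, by at least 1 probe set past 1.3-fold, 6 of the 8 measured members were higher in G9a-KO and 0 were lower. Among all genes 24.6% were called higher and 22% lower in this way. *Eda2r*, *Bbc3*, *Ccng1*, *Plk2*, *Sesn1* and *Mdm2* were the 6. The members were chosen with earlier results of these data known, so the shares of all genes are a description and not a test. The brightest probe set put 5 higher and 0 lower, with a background of 17.4% of all genes higher and 17.2% lower, and the mean of the probe sets put 4 higher and 0 lower, with a background of 15.7% higher and 13.8% lower. Among the 6256 genes whose mean level lay between those of the dimmest and the brightest member, 22% were higher and 24.5% lower by the brightest probe set. By at least 1 probe set, 33.7% of these 6256 genes were higher and 31.2% lower. At 2-fold 1 member, *Eda2r*, was higher, and 0 were lower, against 6.23% of all genes higher and 5.25% lower by at least 1 probe set. By the brightest probe set these shares were 4.61% and 3.76%, and 5.34% and 4.16% at the level of the members. The median difference of the 8 members was 0.53 (1.44-fold higher), against 0.04 for all genes and -0.02 for genes at the level of the members. This median depends on the probe set that stands for each gene, and it was 0.36 when the probe sets of a gene were averaged. Of the 16 probe sets, 15 differed by more than 0 and 9 by more than 1.3-fold upward.

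**Figure D2:**
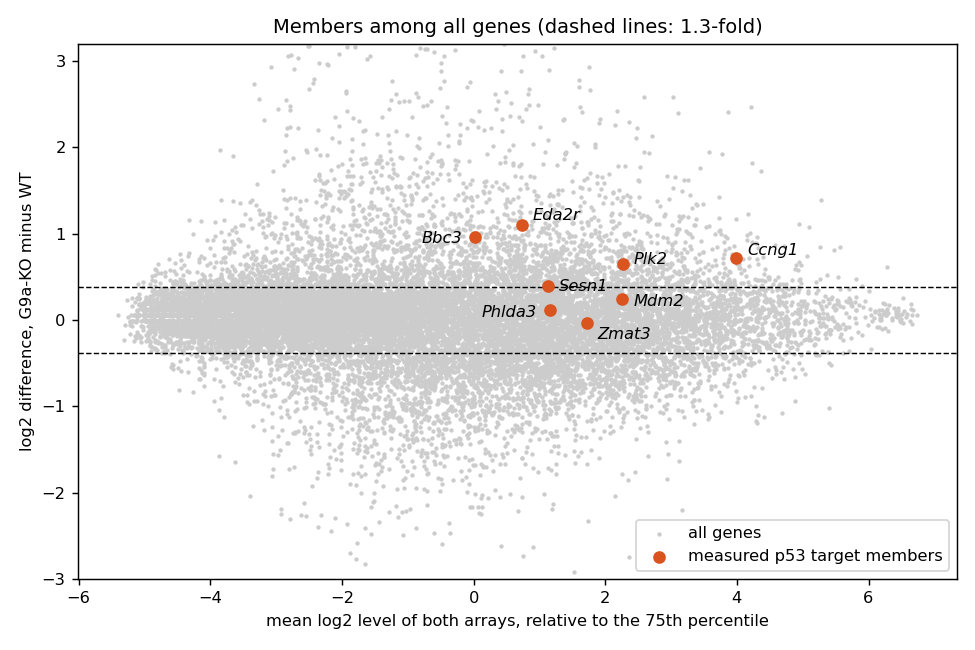
Vertical axis, log2 difference of G9a-KO less WT, and horizontal axis, mean log2 level of the gene on both arrays from the 75th percentile, for 18194 genes, each by its brightest probe set, with 63 genes outside the range drawn. The members are in orange and dashed lines mark 1.3-fold. *Eda2r*, *Bbc3*, *Ccng1*, *Plk2* and *Sesn1* lie above the upper line, while *Mdm2*, *Phlda3* and *Zmat3* lie between the lines.

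The wider set of p53 targets and the other gene lists were counted by both rules. Of 53 further targets listed by role, 49 were measured. By at least 1 probe set 23 were over 1.3-fold higher and 7 lower, 1 of them in both directions, with a background of 24.6% of all genes higher and 22% lower. By the brightest probe set 17 were higher, 3 were lower and 29 were within the threshold, with a background of 17.4% higher and 17.2% lower. These shares of all genes are the background of every list count below. The lists too were chosen with earlier results of these data known, so the counts are set beside the shares only as a description. The median of the 49 was 0.24. As among the members, the differences were uneven from gene to gene.

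Arrest and DNA repair genes numbered 16, of which 5 were higher and 0 lower by the brightest probe set, and 7 were higher and 0 lower by at least 1. The median was 0.25. *Btg1*, an antiproliferative factor, was at 3.70 in G9a-KO and 2.55 in WT (difference 1.15, 2.22-fold higher), and its other probe sets differed by 1.19 and, with WT below the array median, by 0.72. *Polk*, a translesion DNA polymerase, differed by 0.58 and, by a dimmer probe set, by 0.23. *Gadd45a*, a stress sensor of arrest and repair, stood at 2.69 in G9a-KO and 2.16 in WT, a difference of 0.53. *Rrm2b*, the ribonucleotide reductase subunit that p53 induces, differed by 0.48, and by 0.61, 0.29 and 0.85 in its other probe sets, in the last of which WT lay below the array median. *Cdkn1a*, which encodes the CDK inhibitor p21 and was named after its value was seen, was at 2.73 in G9a-KO and 2.42 in WT, a difference of 0.31 that lay within 1.3-fold. Its other probe set passed that threshold, at 2.15 in G9a-KO and 1.74 in WT (difference 0.41, 1.33-fold higher).

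Of 16 measured apoptosis and autophagy targets, 5 were higher and 0 lower by the brightest probe set, and 7 were higher and 2 lower, 1 of them in both directions, by at least 1. The median was 0.21. The 5 include *Fas* and *Aen*, which were named after their values were seen. *Fas* lay below the array median on both arrays, at -3.21 in G9a-KO and -3.71 in WT. *Aen* differed by 0.40 by its brightest probe set and is the gene counted in both directions. When only probe sets above the array median were used, 4 genes were higher and 0 lower by the brightest. *Dram1*, a regulator of autophagy in the lysosomal membrane, stood at 0.22 in G9a-KO and -2.33 in WT (difference 2.54), and the death receptor gene *Tnfrsf10b* at -0.22 in G9a-KO and -2.37 in WT (difference 2.15, and 1.92 by a second probe set). Both lay below the array median in WT, so these differences depend on the background and their folds are not exact. *Ddit4*, an inhibitor of mTOR signalling that also answers to hypoxia and other stresses, was at 4.24 in G9a-KO and 3.21 in WT, a difference of 1.03. *Pmaip1*, the BH3-only gene of NOXA, stood at 3.03 in G9a-KO and 2.65 in WT, and its difference of 0.38 fell just short of 1.3-fold (1.299-fold).

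Targets in metabolism and secretion ran both ways. Of 17 measured, 7 were higher and 3 lower by the brightest probe set, and 9 were higher and 5 lower by at least 1. The median was 0.24. The detoxifying enzyme gene *Ephx1* was at 1.58 in G9a-KO and 0.05 in WT (difference 1.53), and *Dcxr*, a carbonyl reductase, at 2.44 in G9a-KO and 1.13 in WT (difference 1.31). *Ninj1*, a membrane protein of adhesion and membrane rupture, differed by 0.94, and its other 3 probe sets by 0.83, 0.77 and 0.25. *Lpin1*, a phosphatidate phosphatase, differed by 0.90 and 0.53. The lower genes by the brightest probe set were *Kitl* (-0.71), *Lif* (-0.50) and *Prkab1* (-0.40), which were named after their values were seen. The other probe sets of *Kitl* differed by -0.27, -0.65 and, below the array median, by -0.02. The other probe set of *Lif*, below the array median, differed by -0.03, and that of *Prkab1*, above it, by -0.05.

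**Figure D3:**
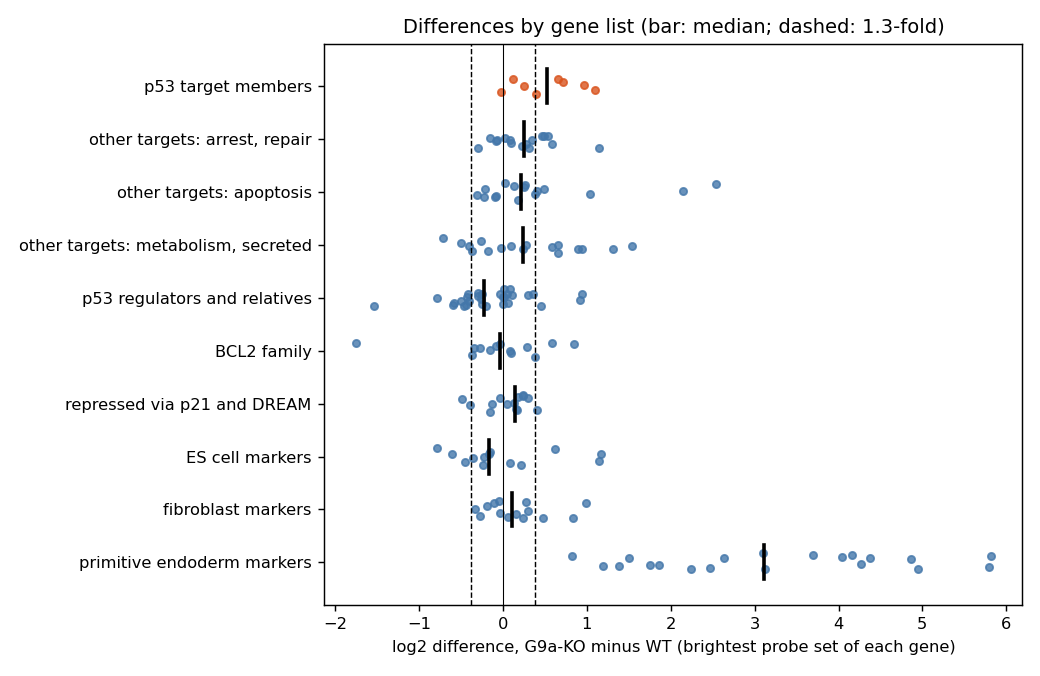
Log2 difference of G9a-KO less WT (horizontal axis) for the genes of each list (rows), 1 point per gene by its brightest probe set, with a bar at the median of the list and dashed lines at 1.3-fold. The members have a median of 0.53 and the other target lists medians of 0.25, 0.21 and 0.24, while the regulators have a median of -0.23 and the primitive endoderm markers one of 3.12.

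Regulators of p53 had a median below 0. Of 30 measured, 3 were over 1.3-fold higher in G9a-KO and 10 lower by the brightest probe set (background 17.4% and 17.2%). By at least 1 probe set 7 were higher and 12 lower, 2 of them in both directions (background 24.6% and 22%). The median was -0.23, and *Ehmt2* itself was the lowest (-1.54). *Ppm1d*, a phosphatase that turns p53 signalling off and is itself a p53 target, stood at 0.68 in G9a-KO and 1.47 in WT by its brightest probe set (difference -0.79), but its other probe set differed by -0.13. *Setd7*, a lysine methyltransferase that acts on p53, differed by -0.60, while its other probe set, below the array median, differed by 0.19. *Atr*, a DNA damage kinase upstream of p53, was at 1.63 in G9a-KO and 0.69 in WT (difference 0.95), and was also higher by its other probe sets. These lay below the array median in WT, at -0.76 in G9a-KO and -2.26 in WT and at -1.59 in G9a-KO and -3.79 in WT, so their folds are not exact. *Cdkn2a*, the locus of p16 and of ARF, which inhibits MDM2, stood at 0.55 in G9a-KO and -0.37 in WT (difference 0.92). *Mdm4*, the MDM2 relative that also restrains p53 and was named after its value was seen, differed by 0.36, within 1.3-fold. It passed that threshold by its next brightest probe sets (0.55 and 0.47), while its dimmest, below the array median on both arrays, differed by -0.11.

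The BCL2 family, to which PUMA and BAX belong, showed no common direction. Of 13 measured members other than *Bbc3* and *Bax*, 2 were higher and 1 lower by the brightest probe set (background 17.4% and 17.2%). By at least 1 probe set 3 were higher and 5 lower, 1 of them in both directions (background 24.6% and 22%). The median was -0.04. *Bak1*, which forms mitochondrial pores as BAX does, was at -1.89 in G9a-KO and -0.13 in WT (difference -1.75, 3.37-fold lower), and its other probe set, below the array median, differed by -0.09. *Bcl2l2*, a survival factor, differed by 0.84, but by 0.06 and 0.26 in its other probe sets above the median, and by 0.77 in one below it. *Bad*, a BH3-only gene, differed by -0.37 and -0.48. Centring the arrays on their medians left 2 of the 13 higher and put 4 lower by the brightest probe set.

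Cell cycle genes that p53 is known to lower through p21 and the DREAM complex were near even. Of 14 measured, 1 was higher and 2 were lower by the brightest probe set (background 17.4% and 17.2%), and 3 were higher and 3 lower by at least 1 (background 24.6% and 22%). The median was 0.14. *Birc5*, which encodes survivin, was at 2.48 in G9a-KO and 2.96 in WT (difference -0.48), whereas the mitotic kinase *Aurkb* differed by 0.41 (0.23 by its other probe set). *Cdk1*, the kinase of mitotic entry, and *Bub1b*, a spindle checkpoint gene, differed by 0.24 and 0.23 and lay within 1.3-fold.

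**Figure D4:**
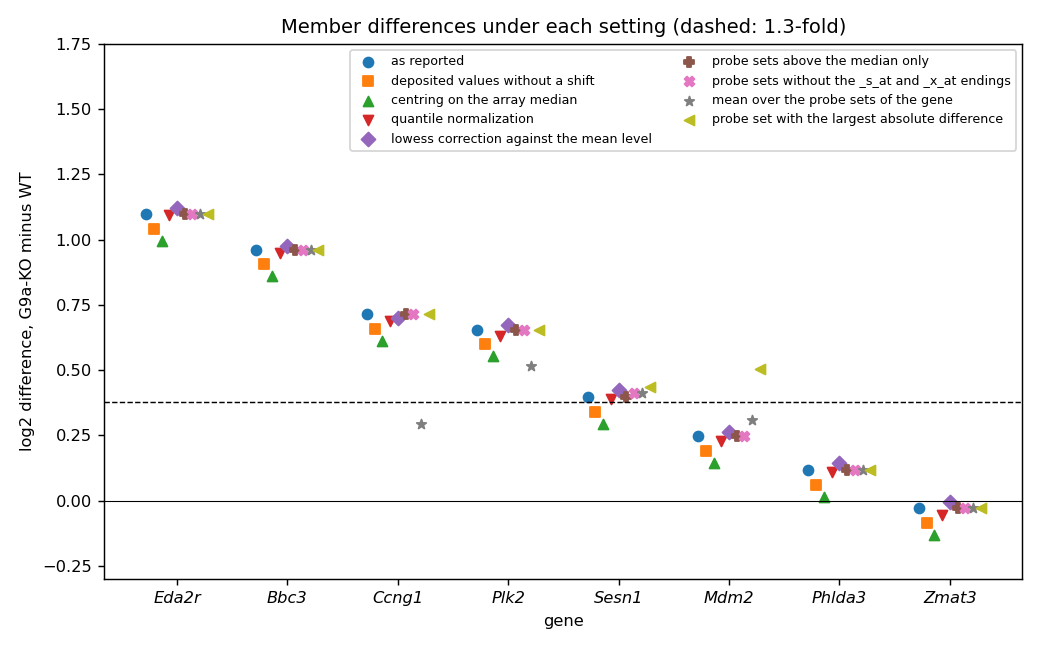
Log2 difference of G9a-KO less WT (vertical axis) for each measured member (horizontal axis) under the reported setting and the alternatives of normalization and probe set choice, 1 symbol per setting, with a dashed line at 1.3-fold. *Eda2r*, *Bbc3* and *Plk2* stay above the line under every setting drawn, *Ccng1* drops to 0.29 when its probe sets are averaged, and *Mdm2* passes the line only by its second probe set.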

How the data were processed

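Total RNA (200 ng) of G9a-KO and WT ESCs was labelled and hybridized to 1 Affymetrix mouse expression array each. The deposited table holds log2 expression values, which the authors computed by RMA. The submitters' processing notes name R 3.2.1 and no RMA package. The 75th percentiles of the deposited values were 7.31 in G9a-KO and 7.37 in WT. The values were taken relative to each array, so a difference in total RNA per cell cannot be seen. No scanner files were used here, so the background correction could not be varied.

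Following the methods of the study, each array was shifted by its 75th percentile, and the WT value of every probe set was subtracted from its G9a-KO value. The brightest probe set by the mean of both arrays stood for a gene. Genes past 1.3-fold were counted by at least 1 probe set, as in the study, and by the brightest. Of 45101 probe sets, 34958 had 1 gene symbol in the platform annotation, 932 had several and 9211 were unnamed. Gene lists were described by counts and medians. Named list genes were up to 4 per list with the largest absolute difference, above the array median on at least 1 array and with the same direction in all their probe sets above it. The members and lists were chosen with earlier results of these data known. The alternatives were other centrings, quantile normalization, lowess (span 0.3) and other probe set rules. The steps were tested on simulated data (Python 3.11.15, pandas 2.3.3, statsmodels 0.14.6).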

Additional observations from a re-analysis of the deposited data

How the results depend on the processing

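Of the 64 alternative values of single members, 60 kept their direction and their side of the 1.3-fold threshold. Many of these could not change. *Bbc3*, *Eda2r*, *Phlda3* and *Zmat3* have 1 probe set each, so the probe set rules returned the reported value. Keeping only probe sets above the array median left the value of every member as reported. The 60 is therefore not a measure of how firm the values are. *Sesn1* fell inside it without a shift (0.34) and with the arrays centred on their medians (0.29), *Ccng1* fell inside it as the mean of its probe sets (0.29), and *Mdm2* passed it by the probe set with the largest difference (0.51). The median of the members was 0.36 when probe sets were averaged, and between 0.42 and 0.58 under the other alternatives. The count of higher members was 1 at 2-fold and between 4 and 6 under the others, and 0 members were lower under all of them. Centring on the median shifted the median of all genes by -0.10. By at least 1 probe set it left 5 members higher, against 18.3% of all genes higher and 27.9% lower. By the brightest it left 4, against 13% higher and 22.3% lower. For the other gene lists, 187 of 210 alternative medians and counts stayed close to the reported ones and 23 moved. A median counted as close if it moved by less than the SD of the added control RNA (0.11). A count did so if it changed by a small factor. Centring on the median shifted each list median by -0.10, inside that limit, so none could count as moved. It took the median of the apoptosis targets from 0.21 to 0.11. Of the medians, that of fibroblast markers moved to 0.30 with bright probe sets only, and that of primitive endoderm markers to 2.88 without the _s_at and _x_at endings and to 2.22 as a mean. The other 20 were counts of few genes. No paired analysis was possible because each group holds 1 array, and for the same reason no replicate could be left out.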

Other observations

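Paralogs of the members, from the sestrin, polo-like kinase, cyclin G, PHLDA, ZMAT and ectodysplasin receptor families, also ran both ways. The list also held *Eda*, the gene of ectodysplasin itself. Of 17 measured, 3 were over 1.3-fold higher in G9a-KO and 2 lower by the brightest probe set (background 17.4% and 17.2%), and 4 were higher and 4 lower by at least 1 (background 24.6% and 22%). The median was 0.00402. The PHLDA genes parted most. *Phlda1* stood at 1.46 in G9a-KO and -0.20 in WT (difference 1.67, 3.17-fold higher), whereas *Phlda2*, an imprinted gene that limits placental growth, stood at 1.41 in G9a-KO and 3.27 in WT (difference -1.85, 3.61-fold lower), beside 0.12 for *Phlda3*. *Ccng2*, the cyclin G2 gene, was at 2.07 in G9a-KO and 1.27 in WT (difference 0.80, and 1.10 by its other probe set). *Tnfrsf19*, a receptor related to that of *Eda2r*, was at -0.62 in G9a-KO and -1.45 in WT (difference 0.84), and its other probe sets differed by 1.26 and, below the array median on both arrays, by 0.61. *Zmat1*, the other lower gene by the brightest probe set, was below the array median on both arrays at -3.19 in G9a-KO and -2.46 in WT and was named after its value was seen. *Phlda1* and *Phlda2* rest on 1 probe set each.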
